A study of Brachypodium distachyon with 7 samples.

Results

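VRN1 (Bradi1g08340) of the grass Brachypodium distachyon was chosen by its identifier, as 1 of 16434 genes with a deposited value for H3K4me3, H3K27me3 or both. VRN1 encodes a MADS-box transcription factor that promotes the passage from leaf to flower production, and in temperate grasses long cold is known to raise its expression. H3K27me3 is laid down by Polycomb repressive complexes and marks genes held silent, whereas H3K4me3 lies at the start of transcribed genes. In wheat and barley, loss of H3K27me3 and gain of H3K4me3 at VRN1 have been described in plants exposed to cold, and VRN1 protein is known there to act against the repressor VRN2 and in favour of the florigen FT1.

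Chromatin immunoprecipitation followed by sequencing was carried out on pooled aerial parts of seedlings of the diploid line ABR1, all raised at 24 °C under long days (16 h of light, 8 h of dark). V0 seedlings were collected 17 days after sowing and received no cold. V30 seedlings were grown for 14 days and then kept at 4 °C for 30 days. V30N seedlings were grown for 7 days, kept at 4 °C for 30 days and grown on in warmth for 7 days. The labels name no transgene or mutation in any group. Each mark was sequenced in 1 library per condition, apart from H3K4me3 in V0, which had 2 libraries that the series' design text calls biological replicates. The p-values given here measure the spread between those V0 libraries, as estimated over all genes by level and not from VRN1 alone. V0 seedlings were also younger at collection than the others, and V30 and V30N differed in growth before cold. The effects of age and earlier growth cannot be told apart from those of cold and the return to warmth. The seedlings were pooled and mixed in cell type, so a smaller number of nuclei carrying a mark and less of the mark in each nucleus cannot be told apart.

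The authors deposited a signal for 11752 genes with H3K4me3 and for 6554 genes with H3K27me3, and VRN1 was among the 1872 genes with both. Sequencing depth behind the values is unknown, and so is any scaling by gene length, so ranks among genes describe the deposited value and not a density of the mark. The files do not pair identifiers with gene descriptions, so the labelled tissue was not checked against marker genes. Libraries of H3K4me3 did not pair up by condition: across the 9323 genes without recurring values (described with VRN1), Pearson's r was 0.960 between V30N and V0 library 2 and between 0.880 and 0.910 for the other pairs. Median centring shifted every H3K4me3 difference by 0.12 for V30 minus V0, by -0.11 for V30N minus V0 and by -0.23 for V30N minus V30, on the log2 scale. For H3K27me3, V30 stood further from V0 than V30N did, with an SD of the log2 differences over genes of 0.253 and 0.183.

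H3K27me3 at VRN1 was lower at the end of cold and after the return to warmth than without cold. VRN1 had a signal of 726 without cold (V0), 474 at its end (V30) and 460 in the warmth afterwards (V30N). The V0 library was the high one, and the V30 and V30N libraries lay close together. VRN1 ranked 191 from the highest of 6554 genes in V0, 668 in V30 and 589 in V30N, so it stayed above 89.8% of the genes with this mark in all 3 libraries. The ratio of the V30 signal to the V0 signal was 0.652, and that of V30N to V0 was 0.633. There was 1 library per condition, so these ratios have no replicate check and no test.

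On the log2(signal + pseudocount) scale, with a pseudocount of 27.3, H3K27me3 at VRN1 differed by -0.59 for V30 minus V0. Of all 6554 genes, 116 had a lower difference, and 120 genes (1.83%) were lower by at least 1.5-fold, a line at 0.585 that VRN1 passed narrowly. Median centring moved VRN1 to -0.55 and a pseudocount at the 5th percentile of the signal moved it to -0.58, which put it short of 1.5-fold in both cases. After the return to warmth (V30N minus V0) it was -0.63, and 5 of 6554 genes had a lower one. Only 16 genes (0.244%) were lower by 1.5-fold in that comparison. The V30 and V30N differences share the single V0 library, so neither is a check of the other. Between V30N and V30 the difference was -0.04, with 2863 genes lower and 3690 higher, and 62 genes (0.946%) were lower by 1.5-fold. The order of the deposited levels was therefore V0, V30, V30N. V30 and V30N were closer than the SD of 0.204 seen among genes of like level (described next), whose median VRN1 exceeded by 0.20. Which of V30 and V30N was lower is not settled, as by rank VRN1 stood higher in V30N (589) than in V30 (668). V30N minus V30 was 0.09 after quantile normalization and 0.10 with the trend of the difference with level removed by lowess.

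**Figure D1:**
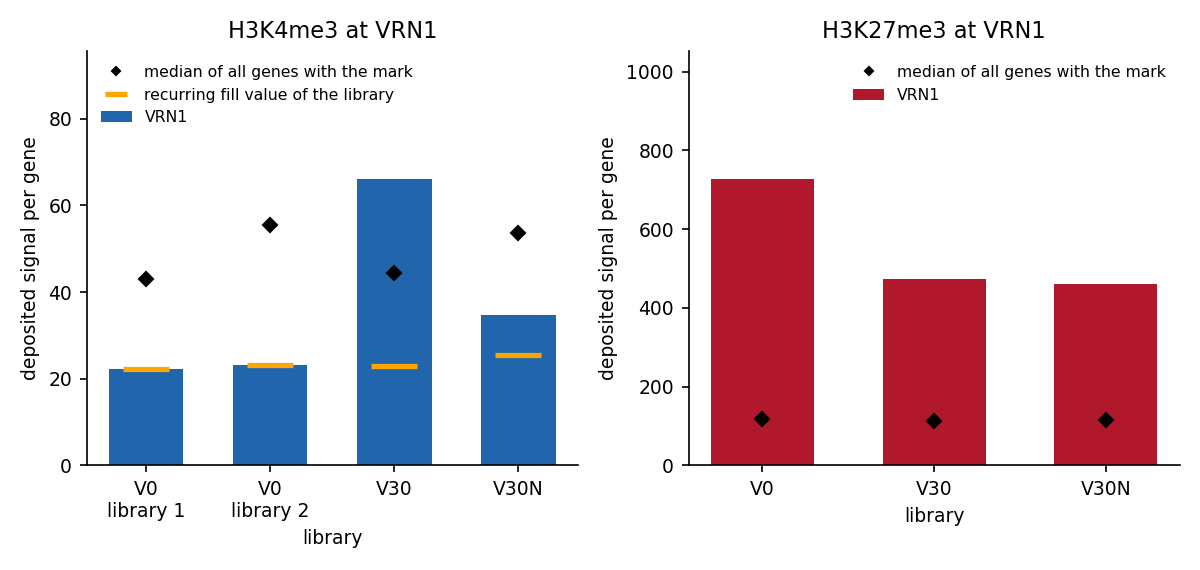
Deposited signal at VRN1 (bars, y axis, from 0) in each H3K4me3 and H3K27me3 library (x axis), with the median of all genes with the mark (diamonds) and, for H3K4me3, the value that recurs across genes in each library (orange dashes). VRN1 sits on the recurring value in both V0 libraries for H3K4me3 and stands well above it in V30 at 66.0, whereas H3K27me3 is highest in V0 at 726.

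Genes that started from a similar H3K27me3 level did not show the same pattern. The 100 genes nearest to VRN1 in V0 had V0 signals between 669 and 789. Their median log2 difference for V30 minus V0 was 0.23, with an SD of 0.194 and a range of -0.64 to 0.61, and 1 of the 100 was lower than VRN1. VRN1 therefore lay 0.82 below the middle of genes of its own level. In V30N minus V0 the median of the 100 was -0.02, with an SD of 0.123 and a range of -0.40 to 0.27. None of the 100 was as low as VRN1, and none was lower by 1.5-fold. In V30N minus V30 the 100 genes had a median of -0.24 and 89 of them lay below VRN1. As deposited, the middle of this level class thus had its largest signal in V30, which VRN1 did not. After quantile normalization the class medians were -0.003 for V30 minus V0 and 0.003 for V30N minus V30. In the latter, 69 of the 100 lay below VRN1. With the trend of the difference with level removed by lowess, these medians were -0.02 and 0.009, and 68 of the 100 lay below VRN1. VRN1 was then at -0.78 for V30 minus V0, with 40 of 6554 genes lower. For V30N minus V0 it was at -0.63, with 4 genes lower.

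H3K4me3 at VRN1 was highest at the end of cold. VRN1 had 22.3 and 23.2 without cold (V0 libraries 1 and 2), 66.0 at the end of cold (V30) and 34.8 in V30N. The V30 library stood above the rest, and V30N lay between it and V0. VRN1 was above 82.7% of the 11752 genes in V30 and above 20.1% in V30N. The V0 values need care, because each H3K4me3 library holds 1 value that recurs over many genes, called a fill value here. V0 library 1 had 22.3 at 1139 genes and V0 library 2 had 23.2 at 74 genes. V30 had 22.9 at 1012 genes and V30N had 25.4 at 208 genes. VRN1 carried the fill value in both V0 libraries and values of its own in V30 and V30N. The small gap between its V0 values is therefore no measure of replicate error. Relative to the fill value of the same library, VRN1 stood at 2.88 in V30 and 1.37 in V30N.

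Only 3 genes carried the fill value in both V0 libraries, among them VRN1 and the florigen relative FT2 (Bradi2g07070). FT2 had 32.3 in V30 and was back on the fill value, 25.4, in V30N. The third, Bradi1g07457, named here because of its values, had 73.8 in V30 and 48.3 in V30N. All 3 also had an H3K27me3 value, as did 1872 of all 11752 genes with H3K4me3. Genes filled in V0 library 1 had values close to those of all genes in the other libraries. These 1139 genes had medians of 55.3 in V0 library 2, 44.2 in V30 and 53.1 in V30N. The medians of all genes were 55.4, 44.4 and 53.6. A fill value in V0 library 1 was thus no sign of a low level in the other libraries. The 74 genes filled in V0 library 2 had medians of 38.3 in V0 library 1, 40.9 in V30 and 41.1 in V30N. These were lower than the medians of all genes, 43.0, 44.4 and 53.6. In V30, 108 of the 1139 genes exceeded VRN1, and in V30N 1054 did. Among the 74 genes filled in V0 library 2, 6 exceeded VRN1 in V30 and 57 in V30N. Against genes filled in V0 library 1 or in V0 library 2, VRN1 was thus in the upper part of the range in V30 and in the lower part in V30N. Nearly all of these genes were unlike VRN1 in the V0 library where they were not filled. There, 1136 of the 1139 and 70 of the 74 exceeded it. Among the 3 genes filled in both V0 libraries, VRN1 had the middle value in V30 and in V30N.

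**Figure D2:**
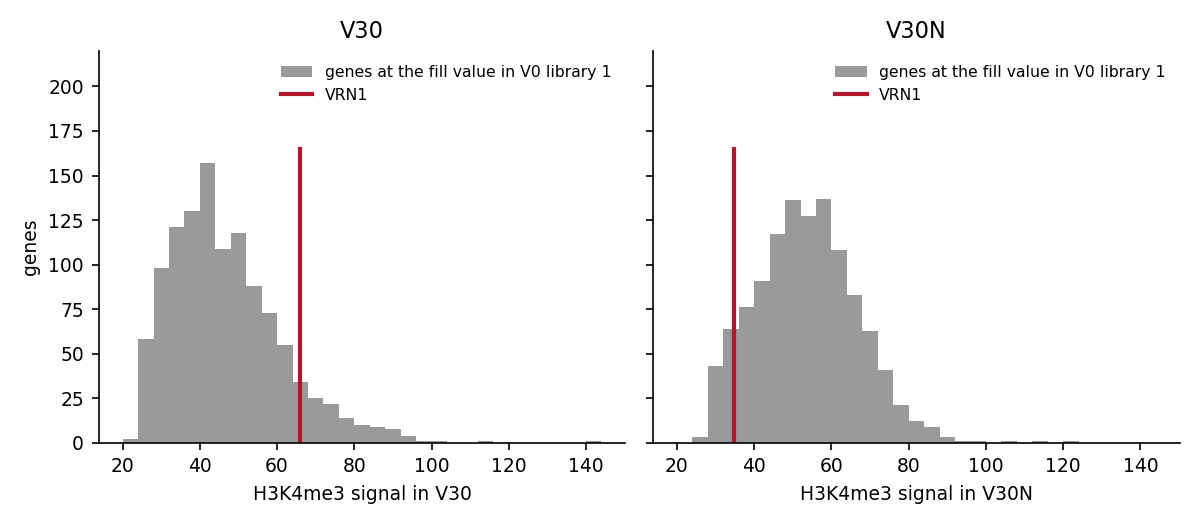
Number of genes (y axis) by H3K4me3 signal (x axis) in V30 and V30N for the 1139 genes that hold the fill value in V0 library 1, with VRN1 as a red line. VRN1 lies in the right tail in V30, with 108 genes above it, and in the left tail in V30N, with 1054 genes above it.

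On the log2(signal + pseudocount) scale, with a pseudocount of 9.41, H3K4me3 at VRN1 differed by 1.23 (SE 0.46) for V30 minus V0. This value rests on fill values in V0 and did not pass limma over all genes (adjusted p = 0.378). Its unadjusted p in limma was under 0.05, as at 585 of 11752 genes (4.98%). In that comparison limma called 63 of 11752 genes (0.536%), of which 8 were higher (0.0681%). By size, 6 of 11752 genes had a larger difference than VRN1, and 257 (2.19%) were higher by at least 1.5-fold. Against V0 library 1 alone the difference was 1.25, and against V0 library 2 alone it was 1.21.

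After the return to warmth, H3K4me3 at VRN1 differed from V0 by 0.46 (SE 0.46), which did not pass limma (adjusted p = 0.99996). A total of 706 genes had a larger difference, and 289 (2.46%) were higher by 1.5-fold, VRN1 not among them. With a pseudocount of 1, VRN1 was at 0.59 and passed 1.5-fold, as did 686 of the 11752 genes. The difference was 0.35 with libraries centred and 0.18 after quantile normalization. Against V0 library 2, the library closest to V30N, it was 0.44. limma called 3 genes (0.0255%) in this comparison.

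The comparison of V30N with V30 is the one in which VRN1 had values of its own on both sides. H3K4me3 was 34.8 in V30N and 66.0 in V30, a ratio of 0.527 and a log2 difference of -0.77 (SE 0.53). It did not pass limma over all genes (adjusted p = 0.9996), where 34 genes (0.289%) were called, 6 of them lower (0.0511%). Of 11752 genes, 118 had a lower difference than VRN1, while the median gene differed by 0.18 in the other direction. After quantile normalization the difference was -1.05 (SE 0.37, limma adjusted p = 0.649), and with libraries centred the limma adjusted p was 0.477. The order of H3K4me3 levels was V30, V30N, V0, and none of the neighbouring levels in that order was separated by limma.

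Among the 100 genes nearest to VRN1 in V0 level of H3K4me3, with mean V0 signals between 22.1 and 23.4, the median log2 difference was -0.05 for V30 minus V0, with an SD of 0.309, and 1 gene lay above VRN1. For V30N against V0 their median was 0.10, with an SD of 0.226, and 2 genes lay above VRN1. For V30N minus V30 their median was 0.07, with an SD of 0.354, and 1 gene lay below VRN1. VRN1 was thus near the edge of its level class in all 3 comparisons, at the high end against V0 and at the low end between V30N and V30. The level that set this class is the fill value, and what that value stands for is not known. Only 3 genes, VRN1 included, held it in both V0 libraries, so nearly all of the class had a V0 value of their own. The place of VRN1 in this class is therefore no check of its change.

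**Figure D3:**
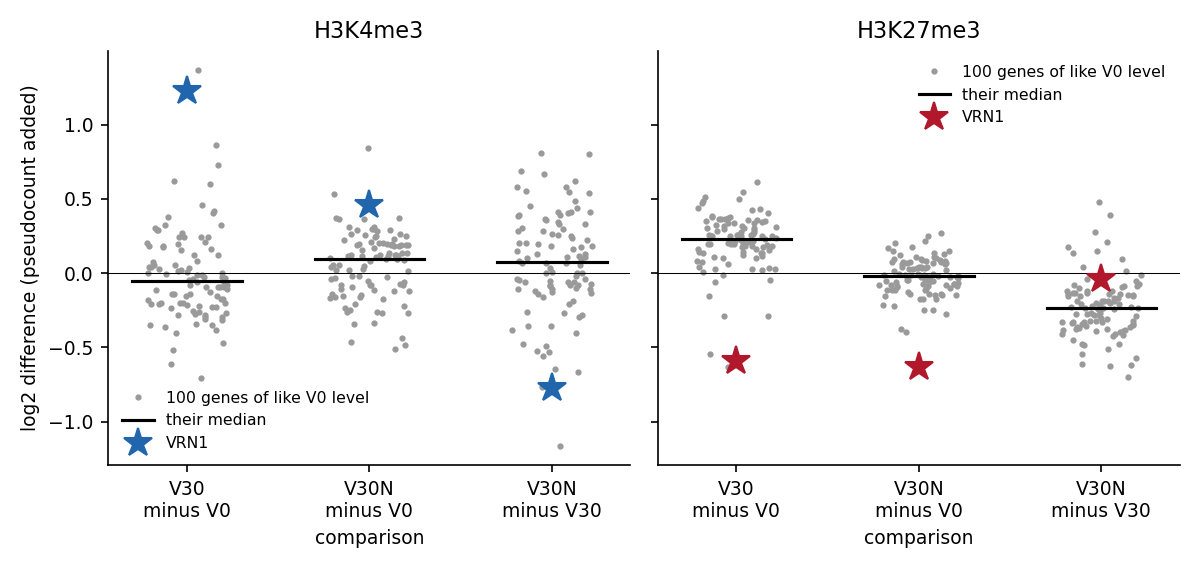
Log2 differences (y axis) of the 100 genes nearest to VRN1 in V0 level (grey points, median as a black bar) and of VRN1 (star) for 3 comparisons (x axis), H3K4me3 on the left and H3K27me3 on the right. VRN1 is below all 100 genes for H3K27me3 in V30N minus V0 and below 99 of them in V30 minus V0. It is above 99 of 100 for H3K4me3 in V30 minus V0, where its V0 level is the fill value.

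The loci numbered next to VRN1 did not share its H3K27me3 pattern as a block. Within 250 locus numbers on each side, 9 other loci had H3K27me3 and 24 had H3K4me3, with 4 loci in both sets. Bradi1g08332, the nearest locus with H3K27me3, was low in signal, with 57.0 in V0, 36.0 in V30 and 31.6 in V30N. With the pseudocount of 27.3, its log2 differences from V0 were -0.41 for V30 and -0.52 for V30N, the next lowest after VRN1 in the window. As a ratio of deposited signals, its fall was larger than that at VRN1 in both comparisons. Bradi1g08326, the next one, was high and went the other way in cold, with 1035 in V0, 1441 in V30 and 1024 in V30N. Bradi1g08320 had 445 in V0, 592 in V30 and 470 in V30N. Both thus had their highest value in V30, the library in which VRN1 was already low, and were near their V0 value in V30N. Their V30 minus V0 differences were 0.47 and 0.39, or 0.13 and 0.23 with the trend with level removed.

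On the higher-numbered side, the nearest loci with H3K27me3 were 120 and 240 locus numbers away. Bradi1g08460 was low throughout, with 30.9 in V0, 27.4 in V30 and 33.5 in V30N, and Bradi1g08580 had 409 in V0, 485 in V30 and 459 in V30N. Beyond the window, 350 locus numbers away, Bradi1g08690 had 86.3 in V0, 78.4 in V30 and 85.8 in V30N. On the log2(signal + pseudocount) scale, no neighbour of the 9 was lower by 1.5-fold in either comparison with V0. The deposited signal of Bradi1g08332, without the pseudocount, was lower by more than 1.5-fold in both. On the log2 scale the median over the 9 was -0.01 for V30 minus V0 and -0.07 for V30N minus V0. For V30 minus V0 it was 0.03 with libraries centred, 0.19 within 100 locus numbers and -0.04 within 500. With the pseudocount, VRN1 was lower than all 9 in both comparisons, also with the trend with level removed. In V30N minus V30 the neighbours had a median of -0.13, and 7 of 9 lay below VRN1 as deposited and 9 of 9 with the trend removed.

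For H3K4me3, the nearest lower-numbered locus was Bradi1g08320, with 29.0 and 37.5 in the V0 libraries, 54.7 in V30 and 41.4 in V30N. It thus had, like VRN1, its highest value in V30, and it carried no fill value. Its log2 difference was 0.59 for V30 minus V0, against 1.23 at VRN1. The nearest higher-numbered loci were Bradi1g08350, with 61.2 and 76.6 in V0, 64.1 in V30 and 70.4 in V30N, and Bradi1g08370, with 68.8 and 75.7 in V0, 65.9 in V30 and 90.1 in V30N. Neither had its highest value in V30. Of the other loci among the 3 nearest on each side, Bradi1g08301 (64.7 and 72.3 in V0, 76.5 in V30, 70.7 in V30N) and Bradi1g08380 (10.2 and 12.0 in V0, 15.2 in V30, 11.5 in V30N) were highest in V30. Bradi1g08310 was not, with 69.9 and 99.3 in V0, 97.8 in V30 and 109 in V30N. In all, 6 of the 24 neighbours in the window were highest in V30, against 1894 of all 11752 genes. PHYC (Bradi1g08400), which encodes a phytochrome photoreceptor, lies 60 locus numbers away and had 69.4 and 80.3 in V0, 66.4 in V30 and 83.6 in V30N. Over the 24 neighbours the median difference was -0.10 for V30 minus V0, or 0.01 with centring, and VRN1 was above all 24. In V30N minus V0 the median was 0.14 and 2 neighbours lay above VRN1. For V30N minus V30 it was 0.20, or -0.03 with centring, and VRN1 was below all 24. A fill value in at least 1 library was held by 6 of the 24.

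**Figure D4:**
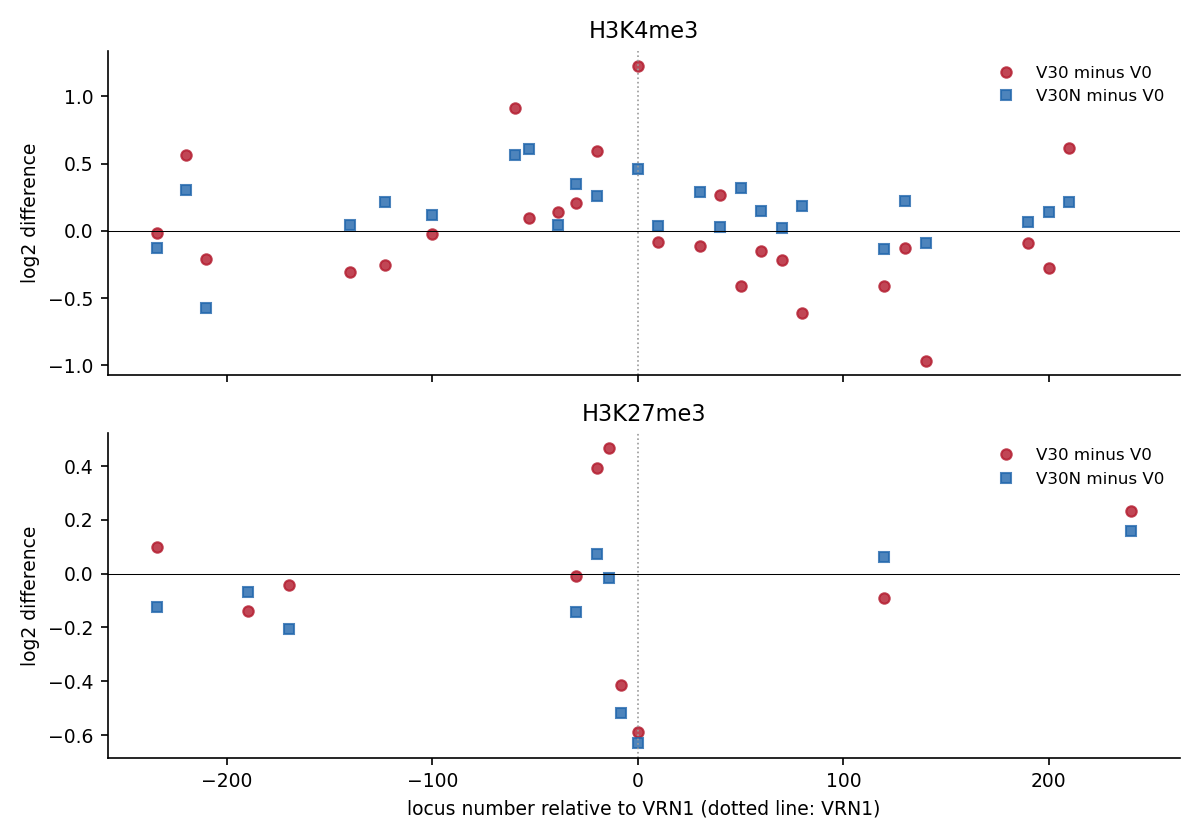
Log2 difference from V0 (y axis) in V30 (circles) and V30N (squares) at VRN1 (dotted line) and at the measured loci within 250 locus numbers (x axis), for each mark. With the pseudocount, VRN1 is the lowest locus of the window for H3K27me3 in both comparisons and the highest for H3K4me3 in V30 minus V0.

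Few genes had lower H3K27me3 together with higher H3K4me3 at the end of cold. Of the 1872 genes with both marks, 64 (3.42%) were lower in H3K27me3 by at least 1.5-fold for V30 minus V0 and 44 (2.35%) were higher in H3K4me3. VRN1 was 1 of 6 genes in both sets, which are 9.38% of the first set and 13.6% of the second. Of these 6, 5 had a fill value in at least 1 V0 library, VRN1 included, and 28 of the 44 genes higher in H3K4me3 did. VRN1 was second of the 6 in its H3K4me3 difference, and the other 5 all had a lower H3K27me3 difference. After the return to warmth, V30N minus V0, 10 genes (0.534%) were lower in H3K27me3 and 38 (2.03%) higher in H3K4me3, and no gene was in both sets. Of these 38 genes, 35 had a fill value in V0. With a pseudocount of 1, VRN1 was 1 of 3 genes in both sets for V30N minus V0, of 65 lower in H3K27me3 and 106 higher in H3K4me3, and 1 of 18 for V30 minus V0, of 200 and 82.

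**Figure D5:**
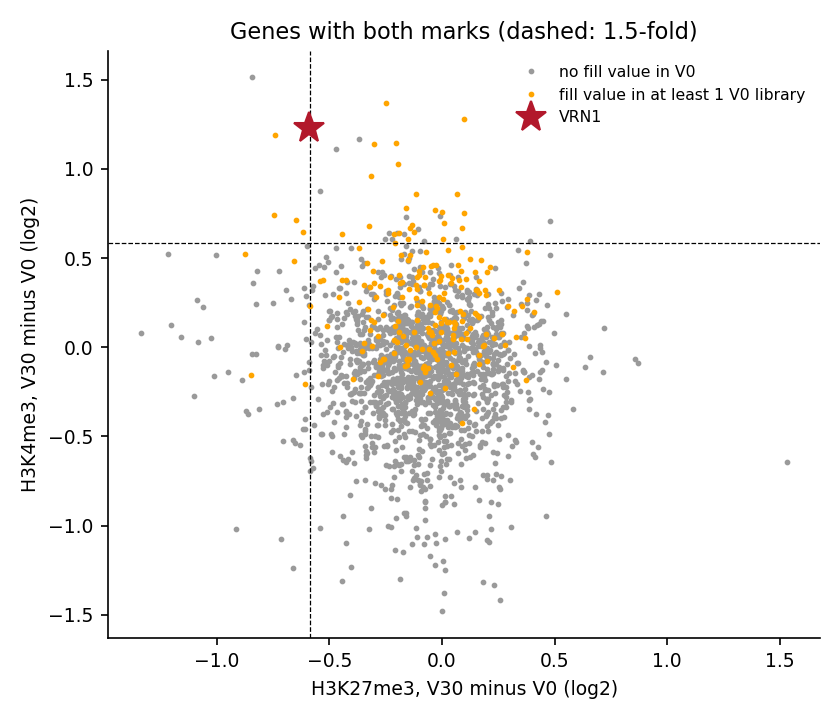
Log2 difference for V30 minus V0 in H3K27me3 (x axis) and H3K4me3 (y axis) at the 1872 genes with both marks, with genes holding a fill value in V0 in orange, VRN1 as a star and dashed lines at 1.5-fold. VRN1 is 1 of 6 genes in the upper left region.

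The genes nearest to VRN1 in H3K27me3 profile, by Euclidean distance of the V30 minus V0 and V30N minus V0 differences over 3 libraries, were Bradi1g16000 at a distance of 0.0422 and FT2 at 0.0627. Bradi1g16000 had 133 in V0, 79.3 in V30 and 73.5 in V30N. FT2 had 337 in V0, 225 in V30 and 209 in V30N, so that it lay, like VRN1, close to the same level in V30 and V30N. In the other mark the 2 genes differed. H3K4me3 at Bradi1g16000 was 45.2 and 95.5 in V0, 80.0 in V30 and 82.1 in V30N, whereas FT2, like VRN1, held the fill value in both V0 libraries and had its highest value in V30.

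With all 7 libraries and both marks in the distance, the nearest of 1871 genes were Bradi1g28110 at 0.456 and Bradi2g43640 at 0.481. Bradi1g28110 had H3K27me3 of 258 in V0, 204 in V30 and 206 in V30N, and H3K4me3 of 22.3, the fill value, and 41.4 in V0, 79.1 in V30 and 46.2 in V30N. Bradi2g43640 had H3K27me3 of 57.7 in V0, 31.1 in V30 and 38.1 in V30N, and H3K4me3 of 32.4 and 42.7 in V0, 76.4 in V30 and 46.2 in V30N, with no fill value.

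VRN1 was also set beside 10 other genes of the flowering pathway, of which 7 were measured in each mark. On the scale with the pseudocount, it had the lowest H3K27me3 differences of the list for V30 minus V0 and V30N minus V0. This also held with the trend with level removed, but for V30N minus V0 only by -0.632 at VRN1 against -0.631 at FT2. For V30 minus V0 the values were then -0.78 at VRN1 and -0.59 at FT2. With no trend removed, FT2 was close to VRN1 at -0.53 and -0.62. As a ratio of deposited signals, FT2 was lower than VRN1 for V30N to V0. For V30 minus V0 the 7 others ranged from -0.53 to 0.55 with a median of 0.09, against -0.01 for all genes, and 0 were lower by 1.5-fold. After the return to warmth they ranged from -0.62 to 0.31 with a median of -0.13, against -0.01 for all genes, and 1, FT2, was lower by 1.5-fold. The other MADS-box genes did not have lower values in V30 as deposited. FUL2 (Bradi1g59250), a close relative of VRN1, differed by 0.33 for V30 minus V0 and -0.13 for V30N minus V0, and SOC1 (Bradi1g77020), a MADS-box integrator of flowering signals, by 0.55 and -0.17. With the trend with level removed, the V30 minus V0 difference was -0.03 at FUL2 and 0.41 at SOC1, and FT1 turned to -0.05. The florigen gene FT1 (Bradi1g48830) differed by 0.15 and 0.09, the CONSTANS-like CO1 (Bradi1g43670) by 0.09 and 0.31, and the evening clock gene ELF3 (Bradi2g14290) by -0.09 and -0.26. VRN2L (Bradi3g10010), related to the repressor VRN2, differed by -0.20 and -0.01.

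In H3K4me3, limma called 0 of the 7 others in each comparison. At an unadjusted p under 0.05, limma had 1 of the 7 for V30 minus V0, VRN2L (adjusted p = 0.464), and 0 in the other comparisons. VRN2L had 22.3, the fill value, and 34.2 in V0, 72.9 in V30 and 38.0 in V30N, and so its highest value, like that of VRN1, was in V30. FT2, SOC1 and ELF3 were also highest in V30, making 4 of the 7, against 1894 of all 11752 genes. The V30N minus V30 difference of -0.80 at VRN2L was the one below that of VRN1. FUL2 had 22.3, the fill value, and 29.6 in V0, 27.2 in V30 and 37.5 in V30N. FT2 differed by 0.37 for V30 minus V0. The remaining members, SOC1, ELF3, PHYC and the photoreceptor gene PHYB (Bradi1g64360), differed by -0.15 to 0.19 for V30 minus V0. The median over the 7 was 0.13 for V30 minus V0 and 0.15 for V30N minus V0, against -0.08 and 0.09 for all genes, and 3 of the 7 held a fill value. PPD1 (Bradi1g16490), a pseudo-response regulator of photoperiodic flowering, was not analysed here.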

How the data were processed

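The authors deposited a signal for every gene in each library, in a unit that the headers do not spell out, and it was used unscaled. The submitters' processing notes name Bowtie2 2.1.0. Build, annotation, region calling, input correction and normalization are not given in the sources used here, and depth is unknown. None of the identifiers matched the RefSeq gene table used here (0 matches), so names come from published assignments. VRN1, the gene list and the tests were chosen with earlier results of these data known.

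Comparisons were made on log2(signal + pseudocount), with a pseudocount at the 1st percentile of each mark, which understates changes of low genes. H3K4me3 was fitted with limma 3.58.1 (R 4.3.3; variance trend) to all 4 libraries, 1 coefficient per condition, with Benjamini-Hochberg adjustment over 11752 genes and a threshold of 0.05. The 1 residual degree of freedom came from V0, whose spread was taken to hold for V30 and V30N as well. In the main fit limma gave 11752 total degrees of freedom. The spread used at each gene was therefore the trend over all genes, those with fill values included. The fit was first run on simulated data with equal spread at every gene and no fill values, which cannot check it at VRN1. H3K27me3 had no test. Named genes were VRN1, the 3 nearest measured loci on each side in each mark, the measured list, and the 2 genes nearest in profile in H3K27me3 and in both marks. Alternatives covered pseudocount, scaling, low-level filter, variance trend, fold threshold, V0 library, number of like-level genes and window width. Python 3.11.15, numpy 2.4.6, pandas 2.3.3 and statsmodels 0.14.6 (lowess) were used.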

Additional observations from a re-analysis of the deposited data

How the results depend on the processing

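The H3K4me3 differences at VRN1 kept their sign and stayed short of the limma threshold in every setting that gave a value. For V30 minus V0 the value ran from 1.10 (pseudocount at the 5th percentile) to 1.496 (pseudocount 1), with limma adjusted p from 0.161 (median centring) to 0.631 (division by the fill value). For V30N minus V0 it ran from 0.18 to 0.59, crossing 1.5-fold with a pseudocount of 1, and for V30N minus V30 from -0.70 to -1.05. Leaving out each V0 library gave 1.21 to 1.25 for V30 minus V0 and 0.44 to 0.48 for V30N minus V0, as values with no test. Dropping the lowest 25% of genes by level removed VRN1 and gave no value. The limma counts over all genes of 63, 3 and 34 went to 0 with median centring, quantile normalization, division by the fill value or no variance trend, and to 3, 2 and 2 without genes holding a fill value (VRN1 kept), a setting added after the data had been seen. Total degrees of freedom in limma were 7.3 to 17.8 in the settings with 0 calls, against 11752 in the main fit. The cause of the lower counts was not tested. No paired analysis was possible because V30 and V30N had 1 library each.

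H3K27me3 at VRN1 for V30 minus V0 fell short of 1.5-fold at -0.58 with a pseudocount at the 5th percentile and at -0.55 with median centring, where the values themselves moved little, and it was -0.75 after quantile normalization. At a 2-fold threshold neither -0.59 (V30 minus V0) nor -0.63 (V30N minus V0) passed. V30N minus V0 stayed between -0.61 and -0.66 and past 1.5-fold in the scaling and pseudocount settings. V30N minus V30, at -0.04, was 0.09 after quantile normalization and 0.10 with the trend with level removed. With a pseudocount of 1, 322 genes were lower than VRN1 for V30 minus V0 and 72 for V30N minus V0, in place of 116 and 5, and 375 and 138 were lower by 1.5-fold. With the trend with level removed, 0 of the 2 nearest H3K27me3 profiles were the same and FT2 was at rank 4. Taking 50 or 200 genes of like level moved the share of genes lower than VRN1 by at most 1 percentage point. The scaling mattered more for V30N minus V30. There, 89 of the 100 like-level genes lay below VRN1 as deposited, 69 after quantile normalization and 68 with the trend with level removed. Windows of 100 and 500 locus numbers turned the sign of the H3K27me3 neighbour median between 0.19 and -0.04 for V30 minus V0, and the other neighbour medians kept theirs. Counting genes past 1.5-fold in both marks with a pseudocount of 1 was added after the data had been seen.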
